A study of Mus musculus with 192 samples.

Results

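Mouse bone marrow-derived dendritic cells that received zymosan depleted for 6 hours, as the labels name this ligand, were compared with control cells labelled Ctrl. The comparison rests on 6 libraries, 3 with Zymosan and 3 with Ctrl, chosen by these labels from a series of 64 groups with 3 libraries each. Bone marrow came from female C57BL/6J mice 6 to 8 weeks old, and the cells of every group were grown with GM-CSF at 15 ng/mL and plated at 100000 cells a well. The series also gave PAM, LPS, HMW, SeV, cGAMP (in the labels 3',3'-cGAMP) and CpGB alone, and all 7 ligands in 21 pairs and 35 triplets. The groups drawn on besides are these 6 ligands alone and the 6 pairs of Zymosan with each of them, all at 6 hours. Zymosan dose, supplier and the treatment behind the word depleted are not stated in the labels, nor what the Ctrl wells received. The labels do not say whether the 3 libraries of a group came from separate mice or cultures, so every p-value measures the spread between libraries, which may be technical.

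Zymosan is a preparation of yeast cell wall whose main sugars are beta-glucans and mannans. Its beta-glucan is bound by Dectin-1, a C-type lectin receptor that signals through the kinase Syk and the adaptors Card9, Bcl10 and Malt1 to the transcription factor NF-kB, while whole zymosan also engages Toll-like receptor 2. Reagents sold as depleted zymosan have usually been treated to remove the Toll-like receptor activity. Dectin-1 is known for phagocytosis of yeast, an NADPH oxidase burst and metabolic rewiring towards glycolysis in myeloid cells. Nrf2, the product of Nfe2l2, turns on antioxidant genes through antioxidant response elements once its inhibitor Keap1 is disabled, and the hypoxia-inducible factors turn on glycolytic genes through hypoxia response elements.

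Expression was read as counts of unique molecular identifiers (UMIs), each of which marks 1 cDNA molecule. The Ctrl libraries held 61823, 68941 and 89530 UMIs and the Zymosan libraries 98931, 145967 and 198625, against a median of 171616 over the series. Levels are given as CPM, counts on a common library size after scaling, and because the Ctrl libraries were the shallowest of these, weakly expressed genes were measured least precisely there. Genes marking the dendritic cell and macrophage lineage were abundant in all 6 libraries: the 12 markers sum to between 20960 and 23400 CPM of unscaled counts with Ctrl and to between 18148 and 18538 with Zymosan, and 1 of them, Aif1, was called, lower with Zymosan, a call lost without Ctrl replicate 2 (log2 fold change -1.23, adjusted p = 0.198). All 8 T and NK cell markers and all 6 erythroid markers in the table had no count in the 6 libraries. Neutrophil markers summed to between 961 and 1213 CPM with Ctrl and between 967 and 1071 with Zymosan. By edgeR's quasi-likelihood test none of the 9 tested neutrophil markers was called, 3 had an unadjusted p under 0.05, and Elane had no count. The markers of B cells, mast cells and basophils, and stromal cells each summed to at most 44.7 CPM in every library. Plasmacytoid dendritic cell markers, of which 4 of 6 had no count, summed to between 48.5 and 72.5 CPM with Ctrl and between 13.7 and 30.3 with Zymosan. Their part in the results was not tested. In such bulk samples, fewer cells of a type and less RNA per cell cannot be told apart.

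Zymosan against Ctrl gave 295 called genes among the 4720 tested (6.25%) at an adjusted p under 0.05 and at least 2-fold. Without the fold limit 429 passed (9.09%). Of the called genes, 209 were higher (4.43%) and 86 lower (1.82%), and the median log2 fold change of all tested genes was 0.02. The genes that rose included those for the cytokine Tnf, the fungal receptor Clec4e, the chemokine Cxcl2, the antioxidant enzymes Prdx6 and Hmox1 and the autophagy adaptor Sqstm1. The libraries of both groups did not overlap for 1165 tested genes (24.7%). The split by direction depended on how libraries were scaled: with RLE factors or library size alone, 166 genes were higher and 138 lower, with all genes centred at -0.11 on the log2 scale. DESeq2 called 119 higher and 94 lower. Leaving out each of the 6 libraries in turn gave 55 to 69 lower genes, the fewest without Zymosan replicate 2. With all libraries thinned to 46564 UMIs, 148 genes were called.

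**Figure D1:**
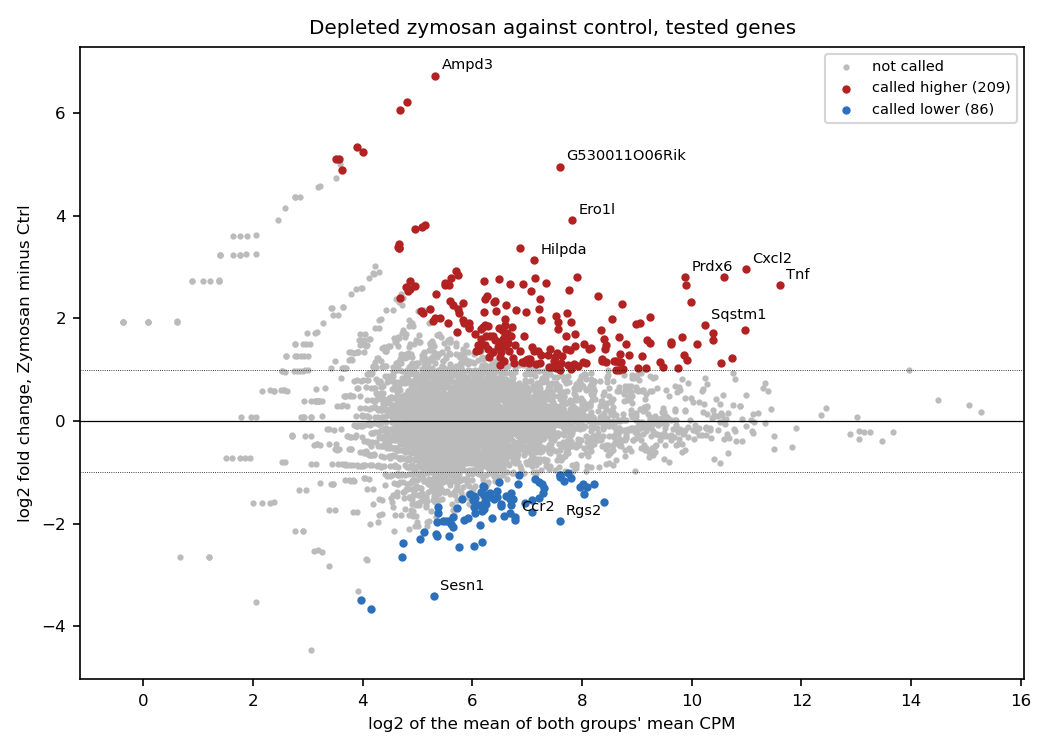
Log2 fold change of Zymosan over Ctrl (vertical axis) against the log2 of the mean CPM of both groups (horizontal axis), 1 point per tested gene, with called genes in colour and dotted lines at the fold threshold. The 209 called rises extend to Tnf and Cxcl2, at levels above those of any of the 86 called falls. The 8 tested genes without a count in these libraries are not drawn, and the diagonal rows at the upper left are genes with few or no counts in Ctrl, whose fitted values are no bounds.

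Among the receptors that sense fungal walls, the inducible lectin Clec4e rose most. Clec4e, also called Mincle, a Syk-coupled receptor for glycolipids, was at 346, 461 and 346 CPM in the Ctrl libraries and 2798, 2803 and 2459 CPM in the Zymosan libraries (log2 fold change 2.80, SE 0.15, adjusted p = 6.99e-44). All 3 Zymosan libraries lay far above all 3 Ctrl libraries. Clec7a, which codes for Dectin-1, was at 1122, 910.5 and 893 CPM with Ctrl and 745, 787 and 746 with Zymosan, which did not pass although the Zymosan libraries all lay lower (log2 fold change -0.35, SE 0.16, adjusted p = 0.191). Clec4n, the mannan receptor Dectin-2, was at 939 ± 24.8 CPM (SD, n = 3) with Ctrl and 1404 ± 26.1 with Zymosan, and its partner Clec4d at 342 ± 53 and 623 ± 123 CPM. Both passed the adjusted p but not the 2-fold limit (log2 fold change 0.58, SE 0.15, adjusted p = 0.00384 for Clec4n, and log2 fold change 0.84, SE 0.21, adjusted p = 0.00198 for Clec4d). Syk was in the same range (log2 fold change 0.57, SE 0.18, adjusted p = 0.0281).

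Downstream of the lectins, Malt1, the protease of the Card9 complex, rose from 97, 62.4 and 76.8 CPM to 359, 397 and 279.9 CPM (log2 fold change 2.11, SE 0.29, adjusted p = 1.63e-09). Card9 itself had no count in any of the 6 libraries, which allows up to 3 counts in either group. Of 18 tested genes of Dectin-1 and C-type lectin signalling, 2 were called higher and none lower by edgeR, beside 4.43% higher and 1.82% lower among all tested genes, with 2 members lower at an unadjusted p under 0.05 and none called lower by DESeq2. The list's median log2 fold change was 0.47. Tlr2 was at 13.9, 99.8 and 96 CPM with Ctrl and 184, 224 and 196 CPM with Zymosan (log2 fold change 1.44, SE 0.34, adjusted p = 0.000998), so that the groups did not overlap although the 3 Ctrl libraries differed widely. Cd14, the lipopolysaccharide co-receptor, was near the fold limit (log2 fold change 0.94, SE 0.20, adjusted p = 0.000194) and passed it without Zymosan replicate 3 (log2 fold change 1.01) or Ctrl replicate 3 (1.04). Irak3, an inhibitor of Toll-like receptor signalling, was called on 2 counts with Ctrl and 24 with Zymosan, a ratio of 6.42 (95% counting interval 1.59 to 56.1). The call of Irak3 was lost without Zymosan replicate 2 (adjusted p = 0.141), Ctrl replicate 1 (0.0537), Ctrl replicate 2 (0.0633) or Ctrl replicate 3 (0.251). The 15 tested Toll-like receptor and adaptor genes had a median log2 fold change of -0.06.

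Inflammatory cytokines split into a group that rose and a group that did not pass. Tnf rose from 637, 1135 and 797 CPM to 5494, 5420.0 and 5206 CPM. Il1a, an alarm cytokine of the interleukin-1 family, rose from 305, 212 and 134 CPM to 893, 787 and 690.5 CPM (log2 fold change 1.90, SE 0.23, adjusted p = 5.77e-12). Il1b, its secreted relative, rose from 319, 362 and 259 CPM to 893, 928 and 858 CPM (log2 fold change 1.53, SE 0.19, adjusted p = 1.02e-11). For each of these 3 genes the lowest Zymosan library was above the highest Ctrl library, and the log2 fold change of Tnf was the largest of them (log2 fold change 2.65, SE 0.19, adjusted p = 1.91e-28).

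Il1rn, the antagonist that blocks the interleukin-1 receptor, was the most abundant of the interleukin-1 genes and rose with them, from 789.5, 861 and 1056 CPM to 3258, 2848 and 3294 CPM (log2 fold change 1.78, SE 0.19, adjusted p = 2.25e-15). Inhba, a subunit of activin A, rose from 27.7, 37.4 and 38.4 CPM to 258, 275 and 215 CPM (log2 fold change 2.78, SE 0.51, adjusted p = 8.58e-06). Il1f9, which codes for the interleukin-36 gamma cytokine, rose from 27.7, 37.4 and 19.2 CPM to 175, 160.0 and 196 CPM (log2 fold change 2.67, SE 0.48, adjusted p = 4.6e-06). In all 3 genes the groups stood apart with no shared range. Il1f6, the interleukin-36 alpha gene, which is not on the list, had 0 counts with Ctrl and 12 with Zymosan, at least 2.14-fold higher. The call of Il1f6 was lost without Zymosan replicate 2 (adjusted p = 0.126), Zymosan replicate 3 (0.0556), Ctrl replicate 1 (0.0984), Ctrl replicate 2 (0.111) or Ctrl replicate 3 (0.155).

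Il6 was at 97, 99.8 and 182 CPM with Ctrl and 138, 166 and 159 CPM with Zymosan, and the groups overlapped (log2 fold change 0.24, SE 0.33, adjusted p = 0.766). Il10, the anti-inflammatory cytokine, had 0 counts with Ctrl and 3 with Zymosan, and Il23a had none in the 6 libraries, which allows up to 3 counts in either group. In all, edgeR called 6 of 18 tested cytokine genes higher and none lower, beside 4.43% and 1.82% of all tested genes. DESeq2 called none of the 18 lower either, and none was lower at an unadjusted p under 0.05. The list's median log2 fold change was 0.89, and 0.47 with DESeq2. The same number, 6, was called higher in every fit that left out 1 library, with either of the other scalings and with DESeq2.

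**Figure D2:**
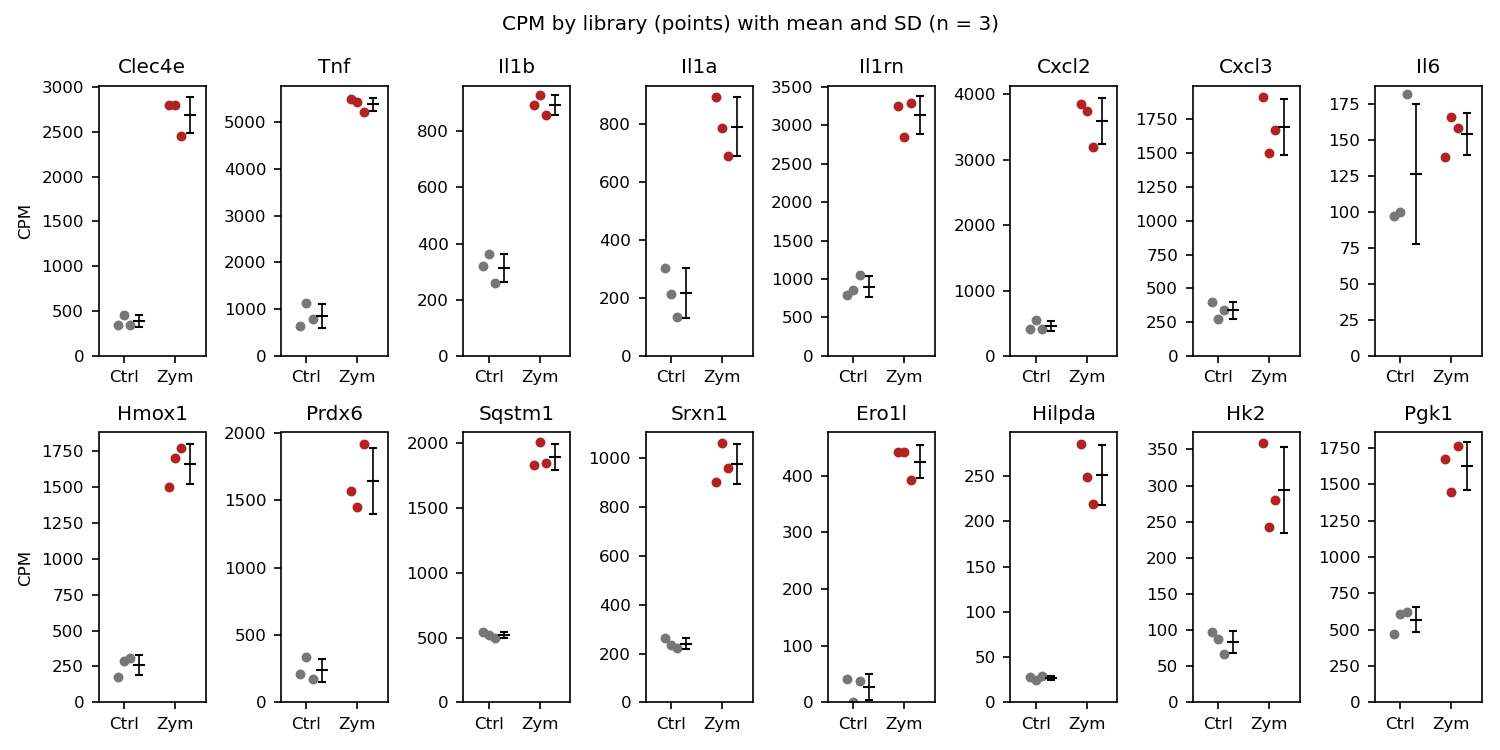
CPM (vertical axis, from 0, a separate scale per gene) of 16 genes in the 3 Ctrl and 3 Zymosan libraries, each point 1 library, with the mean and SD (n = 3) beside the points. The Zymosan points lie above all Ctrl points in every panel but that of Il6, whose Ctrl libraries reach higher than any Zymosan library.

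Neutrophil-attracting chemokines had the largest log2 fold changes among the called chemokines. Cxcl2 rose from 416, 549 and 413 CPM to 3856, 3737 and 3196 CPM (log2 fold change 2.97, SE 0.22, adjusted p = 8.07e-27). Cxcl3 rose from 402, 274 and 336 CPM to 1914, 1497 and 1670.2 CPM (log2 fold change 2.33, SE 0.28, adjusted p = 2.46e-12). Cxcl1 rose from 41.6, 24.9 and 106 CPM to 239, 249.6 and 247 CPM (log2 fold change 1.97, SE 0.44, adjusted p = 0.000574). For Cxcl1, Ctrl replicate 3 stood above the other Ctrl libraries but below all Zymosan libraries. Ccl3, which attracts monocytes and T cells, rose from 583 ± 83.4 to 1333 ± 123 CPM (SD, n = 3; log2 fold change 1.19, SE 0.20, adjusted p = 1.13e-06). Ccl5, the most abundant of the named chemokines in Ctrl, was at 2225 ± 213 CPM with Ctrl and 2482 ± 298 with Zymosan, with overlapping libraries (log2 fold change 0.16, SE 0.16, adjusted p = 0.668). Cxcl14 was called lower (log2 fold change -1.48, SE 0.47, adjusted p = 0.026), a call lost without Zymosan replicate 2 (log2 fold change -1.30) or Ctrl replicate 3 (-0.95). Of 20 tested chemokine genes 5 were called higher and 1 lower, beside 4.43% and 1.82% of all tested genes. The list's median log2 fold change was 0.74, or 0.62 with genes at 0 in Ctrl set to their lower bound.

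The promoters of 13 tested chemokine genes were found by symbol in RefSeq's mouse table, and 5 of them (38.5%) held an NF-kB site in the 250 bases before the gene's start, on either strand. Such a site was in 8.69% of the 3614 promoters found for tested genes and in 7.01% of all 27025 promoters in the table. The Cxcl2 promoter is shown because this gene had the largest log2 fold change among called chemokines, with its overlapping matches to the NF-kB site in capitals, at chr5:90903649-90903898 on the plus strand of GRCm38.p6, read 5′ to 3′. The windows of Tnf, Il1b and Clec4e held no such match. A match is a description of letters, not proof of a bound site.
Cxcl2: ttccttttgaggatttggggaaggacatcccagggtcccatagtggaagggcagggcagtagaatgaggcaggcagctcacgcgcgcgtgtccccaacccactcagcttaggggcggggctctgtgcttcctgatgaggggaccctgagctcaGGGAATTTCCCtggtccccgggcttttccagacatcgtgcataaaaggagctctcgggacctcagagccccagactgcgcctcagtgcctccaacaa

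Some NF-kB factors and feedback genes were called, and 15 of the 23 tested did not pass the adjusted p. Sod2, a mitochondrial superoxide dismutase controlled by NF-kB, rose from 429, 524 and 374 CPM to 1417, 1337 and 1362 CPM (log2 fold change 1.64, SE 0.14, adjusted p = 7.61e-23). Tnip1 and Tnfaip3, which together restrain NF-kB as ABIN-1 and A20, rose by log2 fold changes of 1.41 (SE 0.26) and 1.17 (SE 0.21). Tnfaip3 fell under the 2-fold limit without Zymosan replicate 2 (log2 fold change 0.96). Nfkbia, the inhibitor I-kappa-B alpha, was at 332, 474 and 509 CPM with Ctrl and 948, 883 and 629.8 with Zymosan (log2 fold change 0.85, SE 0.16, adjusted p = 1.29e-05), under the 2-fold limit, which it passed without Zymosan replicate 3 (1.03). Cflar, which blocks caspase-8, was called on a log2 fold change of 1.02, and this call was lost without Zymosan replicate 2 (log2 fold change 0.85), Ctrl replicate 1 (0.86) or Ctrl replicate 3 (0.79). Of 23 tested genes of NF-kB factors and feedback, edgeR called 5 higher and none lower, beside 4.43% and 1.82% of all tested genes. DESeq2 called 4 of the 23 higher and none lower, and none was lower at an unadjusted p under 0.05. The list's median was 0.58.

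Among transcription factors that answer early signals, Egr1 had 3 counts with Ctrl and 41 with Zymosan, a ratio of 7.31 (95% counting interval 2.33 to 36.9). Egr2, a target of Dectin-1 signalling, was at 69.3, 99.8 and 76.8 CPM with Ctrl and 110.4, 134 and 154 with Zymosan and did not pass (log2 fold change 0.73, SE 0.41, adjusted p = 0.325). Ier3 rose from 27.7, 24.9 and 28.8 CPM to 119.6, 122 and 121 CPM (log2 fold change 2.12, SE 0.52, adjusted p = 0.00221). The small Maf protein Maff, a partner of Nrf2, rose from 27.7, 12.5 and 28.8 CPM to 92, 211 and 168 CPM (log2 fold change 2.76, SE 0.55, adjusted p = 5.58e-05). Cebpb, a regulator of myeloid inflammation, rose by 1.16 (SE 0.19). Cebpb fell under the 2-fold limit without Ctrl replicate 1 (log2 fold change 0.94). Dusp1, which switches off MAP kinases, was called higher (log2 fold change 1.45, SE 0.48, adjusted p = 0.0341), and the call was lost without Zymosan replicate 1 (log2 fold change 1.39), Zymosan replicate 3 (1.40), Ctrl replicate 1 (1.41) or Ctrl replicate 3 (1.29). Of 17 tested AP-1 and related factors 3 were called higher and 1 lower, with a median of 0.01. Of 8 tested Egr, Nr4a and calcium-NFAT targets 2 were called higher. Among all tested genes 4.43% were called higher and 1.82% lower, shares at which lists of this size hold few calls or none.

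Ptgs2, the inducible cyclooxygenase, rose from 13.9, 24.9 and 19.2 CPM to 119.6, 115 and 154 CPM (log2 fold change 2.72, SE 0.62, adjusted p = 0.000719). No Ctrl library came near a Zymosan library. Ptges3, a prostaglandin E synthase and chaperone partner, rose from 161 ± 16.5 to 356 ± 17.7 CPM (SD, n = 3; log2 fold change 1.14, SE 0.25, adjusted p = 0.000378). Pla2g4a, the phospholipase that frees arachidonic acid, was called on 2 counts with Ctrl and 21 with Zymosan, a ratio of 5.62 (95% counting interval 1.37 to 49.4). This call was lost without Zymosan replicate 2 (adjusted p = 0.251), Ctrl replicate 1 (0.169) or Ctrl replicate 2 (0.193). Tbxas1, the thromboxane synthase, fell from 457, 337 and 298 CPM to 73.6, 166 and 173 CPM (log2 fold change -1.29, SE 0.28, adjusted p = 0.00023). Of 11 tested eicosanoid genes 3 were called higher and 1 lower, beside 4.43% and 1.82% of all tested genes, and 2 were called higher with either other scaling or with DESeq2.

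Antioxidant genes controlled by Nrf2 were among the clearest rises. Prdx6, a peroxiredoxin that reduces lipid peroxides, rose from 208, 337 and 173 CPM to 1564, 1446 and 1913 CPM (log2 fold change 2.81, SE 0.21, adjusted p = 2.69e-26). Hmox1, the enzyme that degrades heme, rose from 180.1, 287 and 307 CPM to 1500.0, 1702 and 1768 CPM (log2 fold change 2.66, SE 0.24, adjusted p = 1.32e-20). Sqstm1, the autophagy adaptor p62 that also binds Keap1, rose from 540.2, 524 and 499 CPM to 1831, 2009 and 1847 CPM (log2 fold change 1.87, SE 0.17, adjusted p = 6.24e-19). The spread within each group was small against these gaps. Srxn1, which restores oxidised peroxiredoxins, rose from 263, 237 and 221 CPM to 902, 1062 and 961 CPM (log2 fold change 2.03, SE 0.22, adjusted p = 1.04e-14).

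Some genes of thioredoxin and glutathione metabolism were called. Txnrd1, thioredoxin reductase, rose from 623, 636 and 614 CPM to 1914, 2239.7 and 1973 CPM (log2 fold change 1.71, SE 0.18, adjusted p = 5.54e-15). Slc7a11, the transporter that brings in cystine for glutathione, rose from 146 ± 69 to 701 ± 55.1 CPM (SD, n = 3; log2 fold change 2.28, SE 0.25, adjusted p = 7.92e-15). The subunits of glutathione's first enzyme, Gclm and Gclc, rose by log2 fold changes of 1.61 (SE 0.29) and 1.37 (SE 0.39). Thioredoxin itself, Txn1, and glutathione reductase, Gsr, passed the adjusted p but stayed under the 2-fold limit, with log2 fold changes of 0.59 (SE 0.10, adjusted p = 3.53e-06) and 0.79 (SE 0.27, adjusted p = 0.0411). The call of Gclc was lost without Ctrl replicate 3 (log2 fold change 1.35, adjusted p = 0.0603). Prdx1, one of the most abundant genes measured, was at 10624, 10028 and 11339 CPM with Ctrl and 21883, 19049.9 and 22976 with Zymosan, just under the 2-fold limit (log2 fold change 1.00, SE 0.12, adjusted p = 3.92e-12). It passed that limit without Zymosan replicate 2 (1.07), Ctrl replicate 1 (1.01) or Ctrl replicate 3 (1.05).

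Of 20 tested genes of the Nrf2 and oxidative stress list, 8 were called higher, beside 4.43% of all tested genes. A further 5 passed the adjusted p alone, beside 134 of all 4720 tested genes. None of the 20 was called lower by edgeR or DESeq2, with none lower at an unadjusted p under 0.05. The list's median log2 fold change was 0.77, against 0.02 for all tested genes. Its members were chosen with earlier results of these data known. Nfe2l2 itself was at 537 ± 42.6 CPM with Ctrl and 501 ± 25.8 CPM with Zymosan (SD, n = 3), with overlapping libraries and a log2 fold change of -0.11. Keap1 was at 42.5 ± 28.7 and 18.2 ± 5.27 CPM and did not pass either (log2 fold change -1.04, SE 0.71, adjusted p = 0.447). The number of called list members was 8 or 9 in each fit that left out 1 library and 7 with DESeq2.

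Promoters were found for 16 tested members of this list, and 7 of them (43.8%) held an antioxidant response element, searched as TGACNNNGC or TGAGNNNGC on either strand of the 250 bases before the start. The same letters occurred in 26.6% of promoters of tested genes and in 22.8% of all promoters in the table. Srxn1 and Gclm are shown as members that rose and hold matches, in capitals, with 2 in Srxn1 and 1 in Gclm. The Srxn1 window lies at chr2:152105274-152105523 on the plus strand and that of Gclm at chr3:122245307-122245556 on the plus strand of GRCm38.p6. The Srxn1 match nearer the start also spells the AP-1 site TGANTCA, since the letters of both motifs can overlap. No exact entry was found for Prdx6, Hmox1 and Gclc, and the windows of Sqstm1 and Txnrd1 held no match.
Srxn1: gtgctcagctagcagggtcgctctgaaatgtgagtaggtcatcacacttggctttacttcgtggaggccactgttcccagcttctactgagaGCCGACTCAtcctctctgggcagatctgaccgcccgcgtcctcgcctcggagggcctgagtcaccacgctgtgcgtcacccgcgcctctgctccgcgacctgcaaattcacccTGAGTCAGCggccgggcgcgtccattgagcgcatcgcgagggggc
Gclm: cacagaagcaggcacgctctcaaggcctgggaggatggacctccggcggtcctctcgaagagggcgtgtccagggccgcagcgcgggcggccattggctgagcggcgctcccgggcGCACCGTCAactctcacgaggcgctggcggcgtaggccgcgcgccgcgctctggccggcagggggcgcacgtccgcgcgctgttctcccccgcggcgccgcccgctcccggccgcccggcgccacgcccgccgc

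Glycolysis and hypoxia held the most called genes of any list by edgeR, 14 of 24 tested, beside 4.43% called higher among all tested genes. None was lower by edgeR, even at an unadjusted p under 0.05, or by DESeq2. With DESeq2 this list and the Nrf2 list had 7 called genes each. The members of all lists were chosen with earlier results of these data known, so list counts and shares are descriptions. Ero1l, a hypoxia-inducible oxidase of the endoplasmic reticulum, was at 41.6, 0 and 38.4 CPM with Ctrl and 442, 442 and 392 CPM with Zymosan (log2 fold change 3.92, SE 0.43, adjusted p = 1.04e-14). Hk2, the inducible hexokinase that commits glucose to glycolysis, rose from 97, 87.3 and 67.2 CPM to 359, 243 and 279.9 CPM (log2 fold change 1.80, SE 0.30, adjusted p = 8.59e-07). Pgk1, phosphoglycerate kinase, rose from 471, 611 and 624 CPM to 1675, 1446 and 1763 CPM (log2 fold change 1.50, SE 0.18, adjusted p = 4.62e-13). Zymosan libraries exceeded Ctrl libraries in each of these genes, and the Ero1l rise started from 7 Ctrl counts in all.

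Other steps of the pathway followed. Tpi1, triosephosphate isomerase, rose from 139, 187 and 144 CPM to 377, 409.5 and 453 CPM (log2 fold change 1.42, SE 0.27, adjusted p = 3.23e-05). Slc16a3, which exports lactate, rose from 80.1 ± 56.9 to 297 ± 35.5 CPM (SD, n = 3; log2 fold change 1.94, SE 0.38, adjusted p = 5.34e-05). The abundant enzymes Ldha, Pkm, Gapdh and Aldoa passed the adjusted p without reaching 2-fold, with log2 fold changes of 0.94, 0.81, 0.86 and 0.66. Gapdh passed the 2-fold limit without Ctrl replicate 3 (1.13). Slc2a1, the glucose transporter GLUT1, was at 259 ± 33.7 and 529 ± 54.7 CPM, on the 2-fold limit itself (log2 fold change 1.00, SE 0.25, adjusted p = 0.00254). Its call was lost without Zymosan replicate 1 (log2 fold change 0.94), Zymosan replicate 2 (0.98) or Ctrl replicate 1 (0.93). Hif1a, the gene of the hypoxia-inducible factor, did not pass (log2 fold change 0.59, SE 0.33, adjusted p = 0.312).

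Of hypoxia-inducible genes outside the enzyme chain, some rose and others did not pass. Hilpda, a lipid droplet protein induced by hypoxia and counted in the lipid list, rose from 27.7, 24.9 and 28.8 CPM to 285, 249.6 and 219 CPM (log2 fold change 3.14, SE 0.57, adjusted p = 6.65e-06). Bnip3, a receptor for mitochondrial clearance, had 3 counts with Ctrl and 33 with Zymosan, a ratio of 5.89 (95% counting interval 1.85 to 30). Egln3, an oxygen-sensing hydroxylase, had 1 and 23 counts, a ratio of 12.3 (95% counting interval 2 to 507). The call of Bnip3 was lost without Zymosan replicate 2 (adjusted p = 0.0647), Ctrl replicate 2 (0.0576) or Ctrl replicate 3 (0.208). The call of Egln3 was lost without Zymosan replicate 3 (adjusted p = 0.125), Ctrl replicate 2 (0.125) or Ctrl replicate 3 (0.19). Vegfa, the vascular growth factor, and Ndrg1 had log2 fold changes of 0.16 (SE 0.33, adjusted p = 0.869) and 0.25 (SE 0.85, adjusted p = 0.921), with overlapping libraries.

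All 24 tested members of the glycolysis and hypoxia list had a log2 fold change above 0 and lay above the median of all tested genes, which also held with RLE factors, library size alone and DESeq2. Their median was 1.02. The count of called members varied with depth and library: it was 9 without Zymosan replicate 2, 9 without Ctrl replicate 2, 8 after thinning to equal totals and 7 with DESeq2. The 24 tested genes of oxidative phosphorylation, the mitochondrial route of energy supply, had a median of -0.18, and none was called by edgeR or DESeq2, with 1 at an unadjusted p under 0.05. Uqcrh, the member of this list with the smallest p, was at 219 ± 33.8 and 147 ± 25.1 CPM (log2 fold change -0.59, SE 0.29, adjusted p = 0.223).

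The hypoxia response element core ACGTG, on either strand, was in the 250 bases before the start in 12 of 22 glycolysis and hypoxia members with a promoter entry (54.5%). It was in 24.0% of promoters of tested genes and in 16.6% of all promoters. Its share was 27.2% for genes called higher, 12.9% for genes called lower and 22.9% for genes above Ctrl and every other single ligand. Pgk1 and Slc16a3 are shown as called members with 2 matches each, in capitals. Pgk1's window lies at chrX:106186850-106187099 on the plus strand, and that of Slc16a3 at chr11:120948817-120949066 on the plus strand. The window of Hilpda held no such letters. Egln3, shown for its single match, lies at chr12:54203875-54204124 on the minus strand of the same build.
Pgk1: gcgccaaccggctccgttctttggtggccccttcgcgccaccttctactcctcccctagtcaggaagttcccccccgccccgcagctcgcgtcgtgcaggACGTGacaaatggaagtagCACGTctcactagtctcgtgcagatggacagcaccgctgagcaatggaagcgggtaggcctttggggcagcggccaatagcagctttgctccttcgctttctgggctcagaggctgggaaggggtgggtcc
Slc16a3: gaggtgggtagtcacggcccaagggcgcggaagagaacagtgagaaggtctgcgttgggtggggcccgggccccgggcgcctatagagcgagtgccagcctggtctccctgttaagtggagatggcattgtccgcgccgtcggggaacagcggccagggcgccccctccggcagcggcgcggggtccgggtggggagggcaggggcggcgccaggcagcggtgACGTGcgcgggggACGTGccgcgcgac
Egln3: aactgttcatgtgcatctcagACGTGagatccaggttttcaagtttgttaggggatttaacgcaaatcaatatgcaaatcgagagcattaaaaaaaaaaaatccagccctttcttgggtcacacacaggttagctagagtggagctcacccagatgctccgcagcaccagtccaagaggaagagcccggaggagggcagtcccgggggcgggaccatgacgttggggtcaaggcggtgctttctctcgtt

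**Figure D3:**
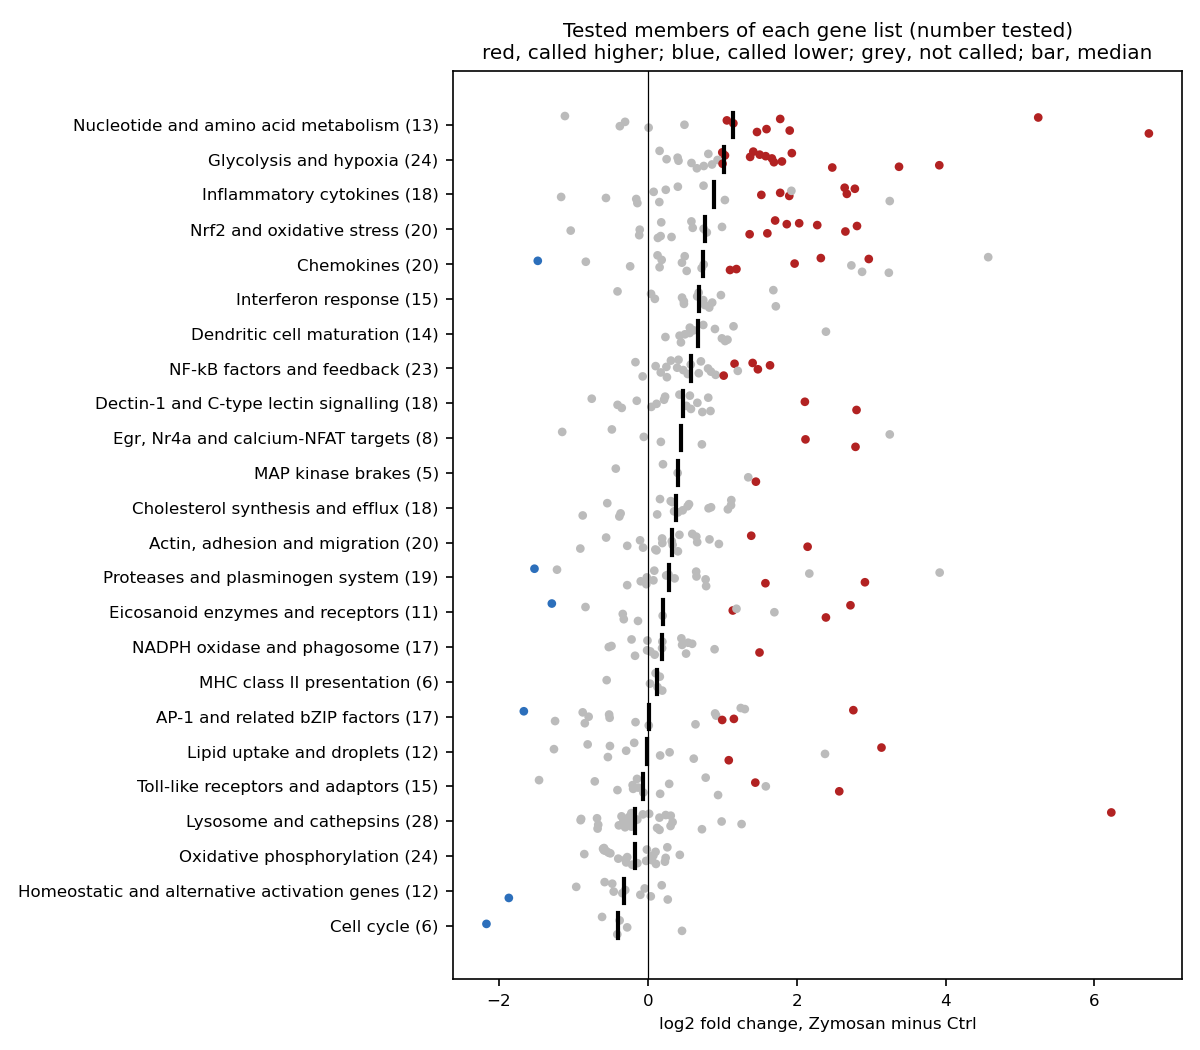
Log2 fold change of Zymosan over Ctrl (horizontal axis) for the tested members of 24 gene lists (rows, ordered by median), each point 1 gene, coloured where called, with a bar at the list's median. Nucleotide and amino acid metabolism (median 1.15) and glycolysis and hypoxia (1.02) stand at the top, the cell cycle list at the bottom.

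Nucleotide and amino acid enzymes had the highest median of the lists, 1.15. Of 13 tested genes edgeR called 8 higher and none lower, beside 4.43% and 1.82% of all tested genes. DESeq2 called none of the 13 lower either, and 0 were lower at an unadjusted p under 0.05. Slc7a2, which imports arginine, rose from 166, 162 and 115 CPM to 506, 563 and 439 CPM (log2 fold change 1.78, SE 0.21, adjusted p = 1.64e-12). Ass1, which remakes arginine from citrulline, rose from 97, 125 and 144 CPM to 349.7, 320.0 and 364 CPM (log2 fold change 1.47, SE 0.28, adjusted p = 2.98e-05). Zymosan and Ctrl libraries did not overlap for either gene. Pnp, purine nucleoside phosphorylase, rose by 1.15 (SE 0.20) and fell just under the 2-fold limit without Zymosan replicate 2 (0.98). Slc3a2, the heavy chain shared by amino acid transporters including that of Slc7a11, rose by 1.06 (SE 0.16), under the limit without Zymosan replicate 3 (0.96) or Ctrl replicate 3 (0.90). Without Ctrl replicate 3, 4 of the 8 calls were lost, those of Slc3a2, Dck (adjusted p = 0.145), Gch1 (0.0823) and Upp1 (0.167), and DESeq2 called 5 of the 13. Ampd3, which deaminates AMP, had no count with Ctrl and 37 with Zymosan, at least 6.6-fold higher.

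Irg1, which makes the antimicrobial metabolite itaconate, rose from 402, 474 and 365 CPM to 1058, 1427 and 1008 CPM (log2 fold change 1.50, SE 0.16, adjusted p = 3.43e-15). It was the only one of 17 tested NADPH oxidase and phagosome genes to be called, a share near the 6.25% of all tested genes, and that list's median was 0.19. F10, the clotting factor X gene, rose from 249, 299 and 317 CPM to 948, 787 and 896 CPM (log2 fold change 1.58, SE 0.20, adjusted p = 8.58e-12). F3, tissue factor, which starts clotting, had 3 counts with Ctrl and 45 with Zymosan, a ratio of 8.03 (95% counting interval 2.58 to 40.4). The call of F3 was lost without Ctrl replicate 3 (adjusted p = 0.0671). Procr, the receptor of protein C that opposes clotting, rose from 64.5 ± 31.7 to 368 ± 9.33 CPM (SD, n = 3; log2 fold change 2.55, SE 0.32, adjusted p = 3.13e-11). Procr, Met and Olr1 belong to none of the lists and were chosen after their values were seen. Met, the receptor of hepatocyte growth factor, rose by 2.44 (SE 0.31), and Olr1, a receptor of oxidised lipoproteins, by 2.81 (SE 0.33). Ezr, which ties membrane to actin, rose from 27.7, 24.9 and 38.4 CPM to 156, 141 and 131 CPM (log2 fold change 2.15, SE 0.45, adjusted p = 0.000178). Acsl1, a fatty acid activating enzyme, was called on a log2 fold change of 1.09, under the limit without Ctrl replicate 1 (0.84).

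Several other lists held at most 1 called gene, against 6.25% called among all tested genes, a share at which lists of this size hold few calls or none. None of the 15 tested interferon-response genes was called by edgeR or DESeq2, although 8 had an unadjusted p under 0.05 and 3 an adjusted p under 0.05. Mx1, an antiviral GTPase, was at 429, 499 and 249.6 CPM with Ctrl and 579.7, 832 and 429 with Zymosan, with overlapping libraries (log2 fold change 0.66, SE 0.20, adjusted p = 0.0199), and the list's median was 0.68. Ifit1 was called higher without Zymosan replicate 3 (log2 fold change 1.13, adjusted p = 0.00199). The 14 tested dendritic cell maturation genes also had a median of 0.68, with none called by edgeR or DESeq2 and 6 at an unadjusted p under 0.05. Cd274, the inhibitory ligand PD-L1, stood just under the 2-fold limit (log2 fold change 1.00, SE 0.20, adjusted p = 6.49e-05), which it passed without Zymosan replicate 3 (1.20), Ctrl replicate 2 (1.23) or Ctrl replicate 3 (1.07). None of the 6 tested genes of MHC class II presentation was called by either tool, with 0 at an unadjusted p under 0.05 and a median of 0.12. Of 18 tested cholesterol genes edgeR called none, with 3 at an unadjusted p under 0.05, and 1 was called lower with either other scaling. DESeq2 also called 1 lower, Abcg1, a sterol exporter (log2 fold change -0.87, SE 0.26, adjusted p = 0.0149 by edgeR). Of 12 tested homeostatic and alternative activation genes edgeR called 1 lower, Ccr2, and 2 were called lower with either other scaling or with DESeq2. Their median was -0.32. The 28 tested lysosome genes had a median of -0.17, with 5 higher and 12 lower at an unadjusted p under 0.05 and 6 that passed the adjusted p but not the 2-fold limit. With either other scaling or with DESeq2, 1 was called lower. By edgeR 1 was called, Tfec, which had no count with Ctrl and 26 with Zymosan (at least 4.64-fold higher).

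The largest falls, among genes with non-overlapping libraries and at least 50 CPM in the higher group, rested on few counts. Among the 10 largest of these Hs6st1 had the most Ctrl counts, 31. Sesn1, a stress-induced sestrin, fell from 69.3, 62.4 and 86.4 CPM to 9.2, 0 and 9.33 CPM, on 19 counts against 3, a Zymosan to Ctrl ratio of 0.0845 (95% counting interval 0.016 to 0.287). Atg7, needed to form autophagosomes, fell from 83.1, 99.8 and 96 CPM to 9.2, 6.4 and 28 CPM (log2 fold change -2.45, SE 0.61, adjusted p = 0.00246). In both genes all Zymosan libraries lay below those of Ctrl, as the rule for naming them required. C3ar1, the receptor of complement C3a, fell from 83.1, 274 and 278 CPM to 36.8, 64 and 79.3 CPM (log2 fold change -1.77, SE 0.35, adjusted p = 6.49e-05). C3ar1 was chosen after its values were seen. Ccr2, the receptor that brings monocytes to inflamed tissue, was at 208, 125 and 182 CPM with Ctrl and 46, 76.8 and 23.3 with Zymosan (log2 fold change -1.87, SE 0.46, adjusted p = 0.00221), and its call was lost without Zymosan replicate 3 (log2 fold change -1.42, adjusted p = 0.0624).

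Other falls named by size were less stable. Hs6st1, a heparan sulfate sulfotransferase, had a log2 fold change of -2.35 and lost its call without Ctrl replicate 2 (log2 fold change -1.82). Sulf2, which removes such sulfates, was at -2.02 and lost its call without Zymosan replicate 2 (log2 fold change -1.69) or Ctrl replicate 2 (-1.77). Clec4a3, of the inhibitory DCIR lectin family, was at -2.06 and lost its call without Zymosan replicate 3 (log2 fold change -1.40) or Ctrl replicate 3 (-1.60). The log2 fold changes of Lrmp, Lpar6, Pitpnc1 and Mcm6 were -2.23, -2.21, -2.30 and -2.17. The call of Lrmp was lost without Zymosan replicate 2 (log2 fold change -2.08) or Ctrl replicate 3 (-1.93). That of Lpar6, a lysophosphatidic acid receptor, was lost without Zymosan replicate 1 (log2 fold change -2.06), Zymosan replicate 2 (-2.13), Zymosan replicate 3 (-2.55), Ctrl replicate 2 (-2.15) or Ctrl replicate 3 (-1.97). That of Pitpnc1, a lipid transfer protein, was lost without Zymosan replicate 2 (log2 fold change -2.45), Zymosan replicate 3 (-1.80), Ctrl replicate 1 (-2.27) or Ctrl replicate 3 (-2.24). Mcm6, a helicase subunit of DNA replication and 1 of 6 tested cell cycle genes, lost its call without Zymosan replicate 1 (log2 fold change -2.06), Zymosan replicate 2 (-1.88), Ctrl replicate 1 (-2.18), Ctrl replicate 2 (-2.11) or Ctrl replicate 3 (-2.18). Timp2, an inhibitor of metalloproteases, was called lower (log2 fold change -1.52, SE 0.41, adjusted p = 0.00562) and lost its call without Zymosan replicate 3 (log2 fold change -1.24) or Ctrl replicate 2 (-1.35).

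Among all genes, the largest rises rested on few or no Ctrl counts. Eid3 had 0 counts with Ctrl and 23 with Zymosan, at least 4.1-fold higher. Car2, a carbonic anhydrase, had 1 count with Ctrl and 30 with Zymosan, a ratio of 16.1 (95% counting interval 2.67 to 655). Zfp131 had 1 and 31 counts, a ratio of 16.6 (95% counting interval 2.77 to 676). Vasn had 1 and 30 counts, a ratio of 16.1 (95% counting interval 2.67 to 655), and its call was lost without Ctrl replicate 1 (adjusted p = 0.0515) or Ctrl replicate 3 (0.105). The RIKEN gene G530011O06Rik had 3 and 188 counts, a ratio of 33.5 (95% counting interval 11.3 to 164), and was at 0, 12.5 and 19.2 CPM with Ctrl and 331, 326 and 471 with Zymosan. Wdr92 rose from 13.9, 12.5 and 28.8 CPM to 239, 230.4 and 173 CPM (log2 fold change 3.37, SE 0.45, adjusted p = 2.08e-10). Every one of these genes was above Ctrl in all 3 Zymosan libraries, as the rule for naming them required.

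To see which changes also appeared when another ligand was present, each pair of Zymosan with a ligand was compared with that ligand alone. These 6 comparisons share no library with each other or with Zymosan against Ctrl. With Zymosan, 126 genes were called higher (2.67%) and 40 lower (0.847%) over PAM, and 97 (2.06%) and 32 (0.678%) over LPS. Over HMW there were 239 (5.06%) and 102 (2.16%), and over SeV 137 (2.90%) and 57 (1.21%). Over cGAMP the counts were 148 (3.14%) and 37 (0.784%), and over CpGB 168 (3.56%) and 35 (0.742%).

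Genes that rose over Ctrl recurred as rises in each setting. Of the 209, 115 were called higher over HMW, 88 over SeV, 78 over cGAMP, 63 over CpGB, 52 over PAM and 41 over LPS. These make up 55.0, 42.1, 37.3, 30.1, 24.9 and 19.6% of the 209, and 48.1, 64.2, 52.7, 37.5, 41.3 and 42.3% of the rises called over each ligand. Their median log2 fold change ran from 0.43 over PAM and 0.47 over LPS to 1.13 over HMW, while the medians of all tested genes lay between -0.03 and 0.02. Of the 86 falls, 30 were called lower over HMW, 9 over SeV, 6 over cGAMP, 4 over CpGB and 4 over LPS. Over PAM edgeR called none of them lower, 6 had a negative value with an unadjusted p under 0.05, and DESeq2 called 0. A few genes went the opposite way: of the rises, 1 was called lower over PAM and 2 over LPS, and of the falls 3 were called higher over PAM, 1 over cGAMP and 2 over CpGB.

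Of the rises over Ctrl, 21 were called higher over all 6 ligands and 68 over none of them. The 21 included the cytokine genes Il1rn and Inhba, the Nrf2 list genes Hmox1 and Sqstm1, and from glycolysis and hypoxia Ero1l, Hk2, Tpi1, Pgam1, Slc16a3 and Bnip3. Over Ctrl, Pgam1 fell under the 2-fold limit without Zymosan replicate 2 (log2 fold change 0.91) or Ctrl replicate 3 (0.97). Hilpda, Mif, Ezr, Hbegf, Car2, Plk2, Gde1, Basp1, Lhfpl2, G530011O06Rik and Gm7120 made up the rest. Hilpda had log2 fold changes of 2.96, 3.22, 3.11, 2.76, 3.33 and 2.40 over PAM, LPS, HMW, SeV, cGAMP and CpGB. Hmox1 had 1.64, 1.34, 2.21, 2.35, 2.22 and 1.72 in the same order, and Sqstm1 1.12, 1.47, 1.71, 2.03, 1.36 and 1.38. Hk2 had 1.27, 1.82, 1.58, 1.41, 1.37 and 1.39, and Il1rn 1.87, 1.17, 1.82, 1.14, 1.56 and 1.62. Inhba had 2.08, 1.47, 3.19, 2.88, 3.21 and 1.96.

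Gde1, a phosphodiesterase of membrane lipids, rose from 55.4, 112 and 48 CPM with Ctrl to 322, 301 and 271 CPM with Zymosan (log2 fold change 2.05, SE 0.37, adjusted p = 5.98e-06). Its values over the 6 ligands were 2.12, 2.57, 1.94, 2.74, 2.25 and 2.32. Plk2, a stress-induced kinase, rose from 208, 199.6 and 182 CPM to 690.2, 665 and 504 CPM (log2 fold change 1.64, SE 0.26, adjusted p = 2.04e-07). Its values over the 6 ligands were 2.54, 1.29, 1.95, 1.22, 1.02 and 2.56. Mif, a cytokine with tautomerase activity, rose from 204 ± 75.7 to 452 ± 64.2 CPM (SD, n = 3; log2 fold change 1.18, SE 0.26, adjusted p = 0.000363). The glycolysis and hypoxia list had 10, 10, 15, 12, 16 and 15 of its 24 tested members called higher over PAM, LPS, HMW, SeV, cGAMP and CpGB, and the Nrf2 list 5, 3, 6, 8, 7 and 5 of 20. Among all tested genes, 2.67, 2.06, 5.06, 2.90, 3.14 and 3.56% were called higher in the same order.

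Il1rn and Inhba apart, several inflammatory genes were called over some ligands and not over others. Tnf had log2 fold changes of 0.34, 0.67, 2.46, 1.87, 1.60 and 1.13 over PAM, LPS, HMW, SeV, cGAMP and CpGB, and was called over the last 4. Cxcl2 had -0.05, 0.89, 2.55, 2.46, 2.19 and 0.16 and was called over HMW, SeV and cGAMP. Clec4e had -0.16, 0.15, 2.38, 1.86, 1.08 and 0.13 and was called over the same 3 ligands. Il1b had 0.07, -0.17, 1.34, 1.24, 0.92 and -0.20 and was called over HMW and SeV. Tlr2 had -0.27, -0.19, 0.60, 0.09, -0.03 and -0.17, none of them called by edgeR. PAM alone already put Clec4e at 3891 ± 261 CPM and Cxcl2 at 8863 ± 563 CPM (SD, n = 3), against 2686 ± 197 and 3596 ± 352 CPM with Zymosan alone. HMW alone left them at 611 ± 37.1 and 519.9 ± 52.3 CPM. The tests of these differences are given in the closing section.

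**Figure D4:**
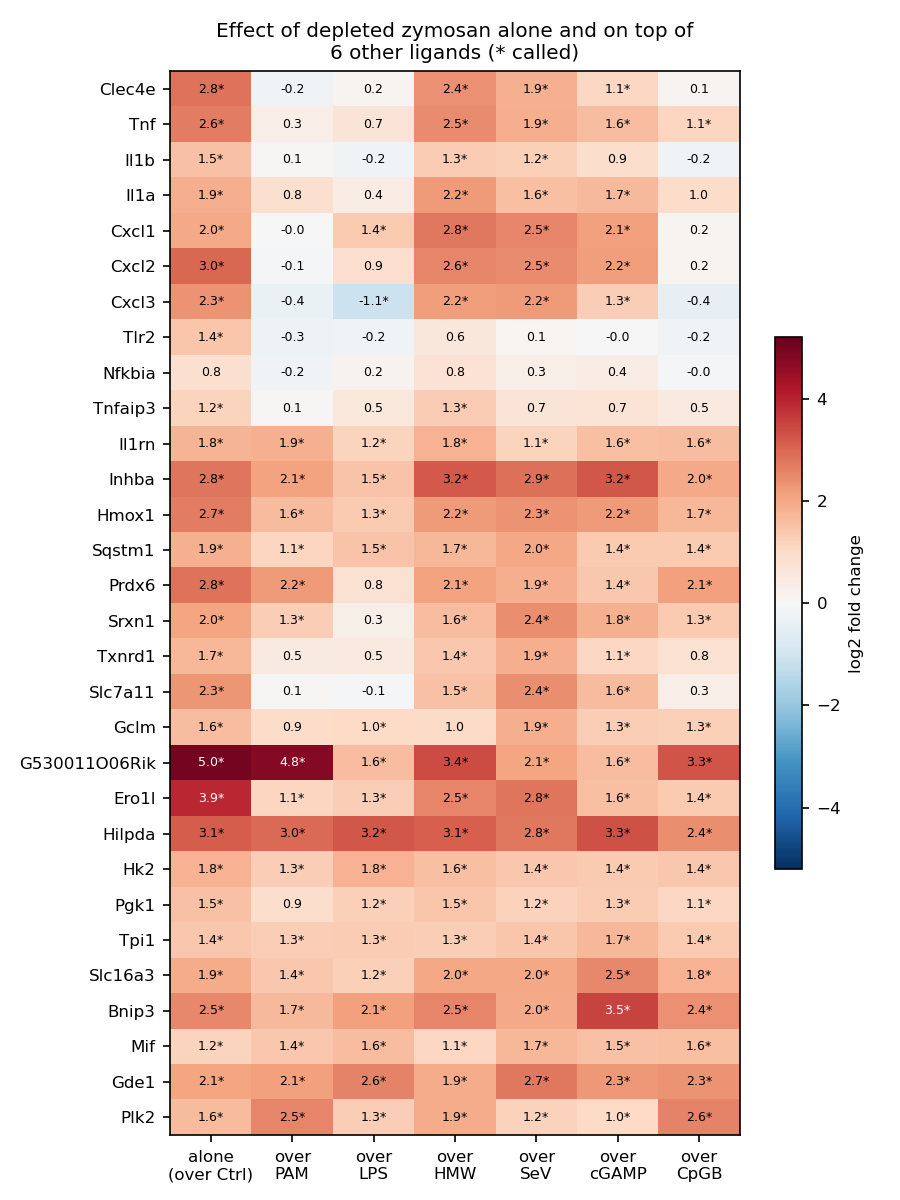
Log2 fold change brought by Zymosan (colour and printed value, asterisk where called) for 30 genes (rows) over Ctrl and over 6 ligands (columns). Il1rn, Inhba, Hmox1, Sqstm1, Hilpda and Hk2 are called in all 7 columns, while Clec4e and Cxcl2 are not called over PAM, LPS or CpGB. Values over Ctrl of genes with under 4 Ctrl counts, such as G530011O06Rik and Bnip3, are fitted values and no bounds.

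Zymosan was then compared directly with PAM and CpGB, a pair of single ligands that also raise inflammatory genes. Against PAM, 238 genes were higher with Zymosan (5.04%) and 223 lower (4.72%), and against CpGB 320 were higher (6.78%) and 415 lower (8.79%). Glycolysis and hypoxia genes were higher with Zymosan, 14 of 24 against PAM and 15 of 24 against CpGB. Nrf2 list genes were called higher for 7 of 20 against PAM and higher for 9 and lower for 1 against CpGB. Cytokine genes went the other way, with 3 higher and 7 lower of 18 against PAM and 2 and 8 against CpGB. Of 20 chemokine genes, 1 was higher and 8 lower against PAM and 13 were lower against CpGB, where 14 of 15 interferon-response genes were lower too. Against PAM edgeR called none of these 15 interferon-response genes higher or lower, and their median log2 difference was -0.05.

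Prdx6 had the smallest adjusted p among genes higher with Zymosan, over PAM and over CpGB alike, at 1641 ± 243 CPM against 251 ± 62.2 with PAM and 278 ± 55 with CpGB (SD, n = 3). Spp1, the secreted phosphoprotein osteopontin, was at 3097 ± 119 CPM with Zymosan, 1081 ± 153 with PAM and 793 ± 43.8 with CpGB. Lgals3, a galactose-binding lectin, was at 3662 ± 176, 1230.3 ± 200.0 and 1501 ± 115 CPM in the same order, and 4012 ± 164 with Ctrl. Lipa, the lysosomal lipase, was at 1561 ± 139 CPM with Zymosan against 475 ± 26.5 with PAM. Mmp12, the macrophage elastase, and Fabp4, a fatty acid carrier, were at 8533 ± 635 and 638 ± 18.8 CPM with Zymosan against 3225 ± 166 and 109 ± 32.7 with CpGB. Lgals3, Lipa, Mmp12 and Fabp4 did not pass against Ctrl, where Lipa, Mmp12 and Fabp4 were at 1405 ± 78.6, 8085 ± 504 and 520.0 ± 61.5 CPM.

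Cytokines, chemokines and other genes were lower with Zymosan. Il1b was at 893 ± 34.7 CPM with Zymosan, 8129.7 ± 506 with PAM and 5542 ± 826 with CpGB. Il6 was at 154 ± 14.6 CPM with Zymosan against 1336 ± 128 with PAM, a log2 difference of -3.09 (SE 0.20, adjusted p = 5.57e-34). Saa3, an acute phase protein, was at 542 ± 88.9, 12037 ± 1148 and 7605 ± 1312 CPM in the order Zymosan, PAM and CpGB. Marco, a scavenger receptor, and Slc7a2 were at 629 ± 29.5 and 503 ± 62.4 CPM with Zymosan against 5121 ± 411 and 1866 ± 129 with PAM. Ccl3, Ccl5 and the interferon-induced GTPase Gbp2 were at 1333 ± 123, 2482 ± 298 and 316 ± 99.4 CPM with Zymosan, against 6565 ± 851, 13774 ± 2845 and 1722 ± 198 with CpGB.

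Finally, genes were sought that were higher with Zymosan than in Ctrl and with every other single ligand, by the largest of the 7 p-values. This test found 42 genes (0.890%), 29 of them at least 2-fold above each of the 7 other groups. No gene was lower than in all 7 by edgeR or DESeq2, and 8 were at an unadjusted p under 0.05 with either tool. The 42 included 8 of 20 Nrf2 list genes and 11 of 24 glycolysis and hypoxia genes. Thinning to equal totals left 20 genes, all among the 42, and leaving out replicate 3 of every group left 18, also all among them.

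The 10 genes with the smallest p were Prdx6, Sqstm1, Hmox1, Srxn1, Prdx1, Ero1l, Pgk1, G530011O06Rik, Ptgr1 and Gdf15. Hmox1 was at 1657 ± 139.7 CPM with Zymosan (SD, n = 3), and its next highest mean was 489.6 ± 21.6 with CpGB. Srxn1 was at 975 ± 81.1 CPM against 366 ± 29 with HMW, the next highest. Sqstm1 was at 1896 ± 98.5 CPM against 708 ± 59.9 with CpGB. In each of these genes the lowest Zymosan library was above every library of the other 7 groups, a separation that their choice by smallest p favours.

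Ero1l was at 425 ± 28.7 CPM against 121 ± 14.7 with PAM, and Pgk1 at 1628 ± 164 against 814 ± 56.8. Gdf15, a stress cytokine, was at 27.7, 74.8 and 0 CPM with Ctrl and 239, 211 and 173 CPM with Zymosan (log2 fold change 2.67, SE 0.46, adjusted p = 1.63e-06). With the other ligands its mean was at or below 23.4 ± 8.92 CPM. Ptgr1, which inactivates prostaglandins and leukotriene B4 and is a known Nrf2 target, rose from 55.4, 49.9 and 38.4 CPM to 267, 262 and 224 CPM (log2 fold change 2.39, SE 0.39, adjusted p = 4.94e-07). Alas1, the first enzyme of heme synthesis, was also among the 42, at 930.3 ± 58.5 CPM with Ctrl and 2038 ± 225 with Zymosan (log2 fold change 1.14, SE 0.17, adjusted p = 1.46e-08). Clec4n was the 1 member of the Dectin-1 list among the 42, and its level with the other 6 ligands ran from 290.3 ± 36.9 CPM with LPS to 970.5 ± 46.5 CPM with HMW.

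**Figure D5:**
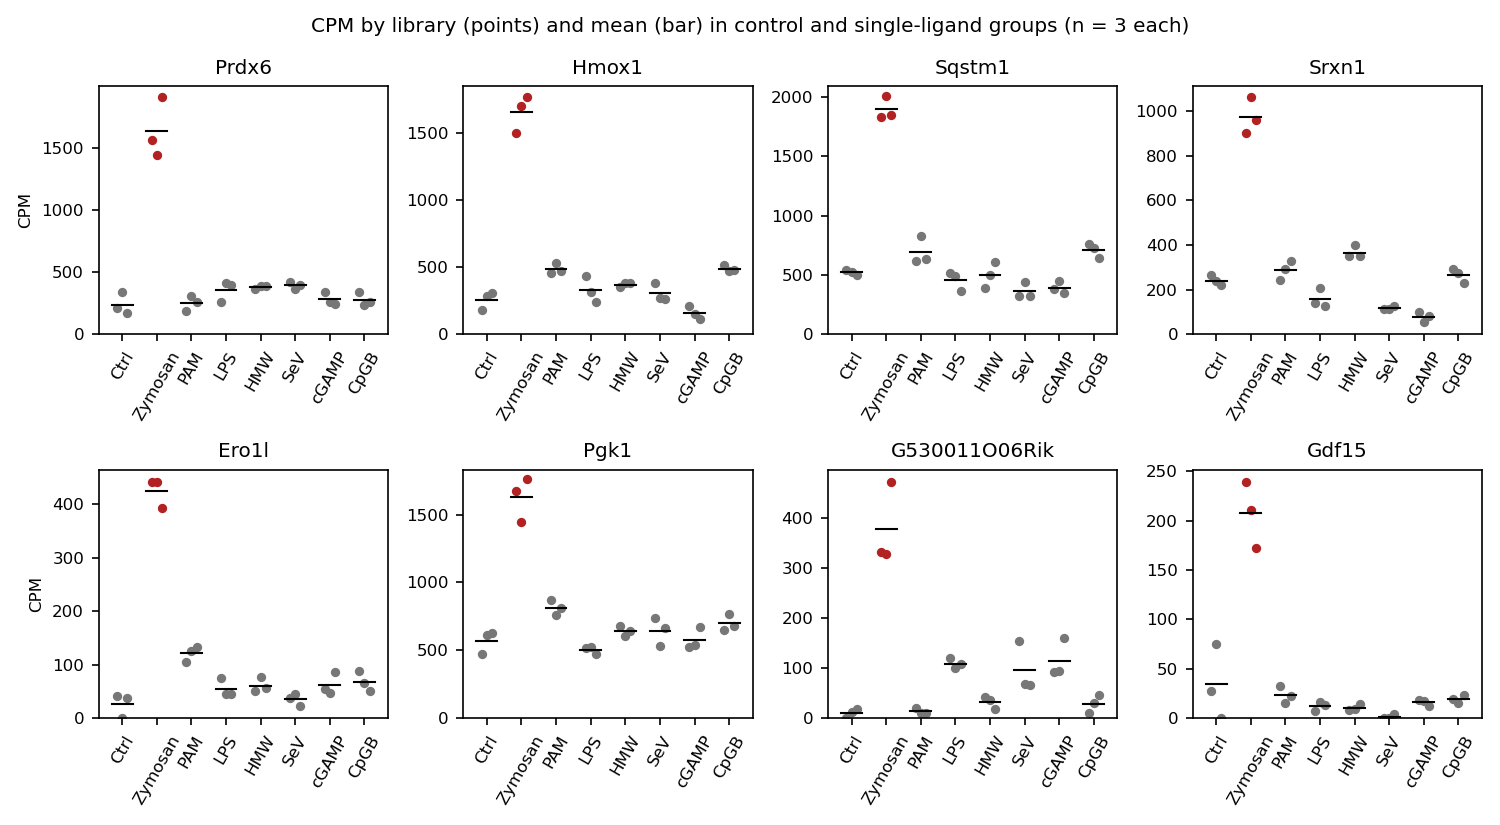
CPM (vertical axis, from 0, a separate scale per gene) of 8 genes that were higher with Zymosan than in Ctrl and all other single ligands. Points are libraries and bars are means (n = 3 per group). The Zymosan points (red) lie above every other point in each panel, a separation that the choice of these genes favours.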

How the data were processed

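Messenger RNA of bone marrow-derived dendritic cells was sequenced, in 3 libraries for each of 64 groups. The authors deposited 1 table of UMI counts per gene with 23481 genes, and reads had been aligned with BWA 0.7.15 to mm10, per the submitters' processing notes; the counting step is not given in the sources used here. The values are whole counts and were used as deposited. Columns were matched to samples by their names.

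Genes with low counts were removed with filterByExpr, which left 4720 genes holding 95.7% of all UMIs. All libraries were fitted together, with TMM scaling and group means as the only terms, in edgeR 4.0.16 (limma 3.58.1, R 4.3.3). Differences were tested with edgeR's quasi-likelihood test (128 residual degrees of freedom) and Benjamini-Hochberg adjustment over all tested genes, and a gene was called when its adjusted p was under 0.05 and its change 1 or more on the log2 scale, up or down. Levels are CPM on TMM-scaled library sizes. A gene at 0 counts in a group was given a bound from 3 counts over the group, and one at 1 to 3 counts an exact 95% interval of the ratio. Both cover counting error only. Whether a gene was above Ctrl and each of 6 other ligands was judged by the largest p of 7 differences, adjusted over all genes.

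By a chi-square test, the counts of replicates differed by more than counting error within Ctrl and within Zymosan. Chi-square per degree of freedom was 1.11 to 1.16 within Ctrl and 1.15 to 1.44 within Zymosan. This test cannot tell whether the replicates came from separate cultures. Library totals ran from 46564 to 610234 UMIs. Counts for Zymosan against Ctrl were also simulated over 4720 genes. The simulation altered only genes whose Ctrl level averaged 50 CPM or higher. Of these, 49 of 50 raised 4-fold and 19 of 50 raised 2-fold were called. Of those lowered, 39 of 50 at 0.25 and 10 of 50 at 0.5 of their level were called. Among unchanged genes, 5 of 4520 were called. Recovery of changes in genes with lower Ctrl levels was not tested.

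Named genes were a fixed set of receptors, cytokines and early targets, up to 4 called members of each of 24 lists (493 genes), the 12 rises and 10 falls of largest size with non-overlapping libraries and at least 50 CPM, up to 10 genes called over the most ligands, the 5 highest and 5 lowest against PAM and against CpGB, and up to 10 above every ligand. A few genes that the rule names are counted but not reported by name here. Other genes named are list members or were chosen after their values were seen. The members and lists were chosen with earlier results of these data known. Promoter sequences are those of RefSeq's mouse table (GRCm38.p6), matched by exact symbol. Alternatives were RLE factors, library size alone, no filter, no fold threshold, thinning to equal totals, the compared groups alone, a replicate block, DESeq2 1.42.0 and leaving out libraries.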

Additional observations from a re-analysis of the deposited data

Results flagged for a closer look

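The log2 fold change brought by Zymosan was compared between cells with another ligand and cells without, for 19 named genes and 6 ligands. Of these 114 differences, 37 in 12 genes passed edgeR's quasi-likelihood test of the interaction (adjusted p under 0.05 over all tested genes). The 37 were all negative, a sign that the choice of genes favours, since the same measured rise over Ctrl that chose them is subtracted in every difference, so the sign is given as a description. Over all tested genes, 151 of 200 passing differences were negative over PAM, 123 of 169 over LPS, 38 of 42 over SeV, 43 of 51 over cGAMP and 109 of 164 over CpGB. None of the 19 genes passed over HMW. Over HMW edgeR found no difference among all tested genes, with 256 at an unadjusted p under 0.05. Each difference uses the same Zymosan and Ctrl libraries, so the 37 are not independent of each other. The 19 genes were those called with Zymosan alone among a set of Dectin-1 receptors, signalling genes, cytokines and targets and among the genes called over the most ligands.

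Among receptors and cytokines the differences were widest for Clec4e and Tnf. The difference for Clec4e, on the log2 scale, was -2.97, -2.65, -0.95, -1.72 and -2.68 over PAM, LPS, SeV, cGAMP and CpGB, with a largest adjusted p of 0.00502. For Tnf it was -2.31, -1.98, -1.04 and -1.52 over PAM, LPS, cGAMP and CpGB, with a largest adjusted p of 0.00674. For Tlr2 it was -1.71, -1.63, -1.48 and -1.61 over PAM, LPS, cGAMP and CpGB, with a largest adjusted p of 0.0349. Il1b and Il1a, which code for interleukin-1 cytokines, also differed. For Il1b it was -1.46, -1.70 and -1.72 over PAM, LPS and CpGB, with a largest adjusted p of 1.32e-07. For Il1a it was -1.05, -1.52 and -0.95 over PAM, LPS and CpGB, with a largest adjusted p of 0.0294.

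The neutrophil-attracting chemokines differed over PAM and CpGB. The difference for Cxcl1 was -2 and -1.82 over PAM and CpGB, with a largest adjusted p of 0.0154. For Cxcl2 it was -3.02, -2.08 and -2.81 over PAM, LPS and CpGB, with a largest adjusted p of 6.49e-09. For Cxcl3 it was -2.69, -3.44 and -2.74 over PAM, LPS and CpGB, with a largest adjusted p of 4.61e-11. Cxcl3 was itself called lower when Zymosan was added to LPS (log2 fold change -1.11).

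Hmox1, Sqstm1, Ero1l and G530011O06Rik were among the genes chosen for being called over all 6 ligands. The difference for Hmox1 was -1.02 and -1.31 over PAM and LPS, with a largest adjusted p of 0.0409. For Sqstm1 it was -0.75 over PAM, with an adjusted p of 0.0442. For Ero1l it was -2.81, -2.64, -2.35 and -2.56 over PAM, LPS, cGAMP and CpGB, with a largest adjusted p of 0.0378. For G530011O06Rik it was -3.37, -2.90 and -3.37 over LPS, SeV and cGAMP, with a largest adjusted p of 0.0404. The values of Ero1l and G530011O06Rik rest on 7 and 3 Ctrl counts, and what depth contributes to them was not tested.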

How the results depend on the processing

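Thinning every library to 46564 UMIs left 1848 tested genes and lowered the count for Zymosan against Ctrl to 148 (105 higher, 43 lower). It lowered those over PAM, LPS, HMW, SeV, cGAMP and CpGB to 70, 44, 118, 94, 73 and 88, those against PAM and CpGB to 190 and 354, and the genes above all ligands to 20. Without a fold threshold, 135 genes were lower against Ctrl, and 305, 251, 558, 303, 280 and 355 were called over the 6 ligands in the same order. Genes lower against Ctrl numbered 138 with RLE factors, 138 with library size alone and 31 without a filter on low counts. DESeq2 called 119 genes higher. Leaving out 1 library, or 1 replicate number of every group, gave 175 to 273 calls against Ctrl (146 to 204 higher, 29 to 69 lower). Over PAM, LPS, HMW, SeV, cGAMP and CpGB, leaving out 1 replicate number gave 94 to 128, 55 to 113, 172 to 300, 81 to 163, 105 to 144 and 101 to 181 calls. The genes above all ligands ran from 18 to 38. Without replicate 1 of every group 50 genes were lower against Ctrl, and without replicate 2 of every group 184 were called there (36 lower), with 65 over LPS and 115 over cGAMP. Values of genes that did not pass changed sign for Il6 after thinning (-0.24), Lgals3 without a filter (0.050), Nfe2l2 without a filter (0.070) and without replicate 3 of every group (0.013), and Mmp12 with RLE factors (-0.054), library size alone (-0.059) and DESeq2 (-0.054). Of 103 named genes called against Ctrl, 62 kept the call without each of the 6 libraries in turn. Deviations of same-numbered Zymosan and Ctrl libraries correlated at -0.01, 0.02 and 0.02 over 2737 genes, and 2 of 3 correlated best with their own number. Counting error at these depths can hide a pairing, so the correlations cannot decide whether replicate numbers pair the libraries. UMI totals rose with replicate number in both groups. With the replicate block, 295 genes were called, 293 of them in common. The simulation altered only genes whose Ctrl level averaged 50 CPM or higher. Of these, 19 of 50 lowered to 0.5 of their level and 25 of 50 raised 2-fold passed the adjusted p alone. The fold threshold, set at the simulated fold, left 10 and 19 called. Thinning, other filters and left-out libraries change the number of genes or libraries tested, and otherwise the cause was not tested.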
